A study of Mus musculus with 2 samples.

Results

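The red cell surface proteins described here are band 3 and 8 carriers or partners of human blood group antigens, encoded in the mouse by Slc4a1, Rhag, Rhd, Gypc, Kel, Xk, Aqp1, Ermap and Icam4. They were chosen by name and found by matching the Ensembl identifiers of the deposited tables to GENCODE symbols, which gave 9 of 9 genes among 43346 in all. The rule that picks them uses names and no expression value. RNA came from MEL cells, a mouse erythroleukemia line whose cells resemble arrested red cell precursors and which starts to make hemoglobin in dimethyl sulfoxide (DMSO). The cells had been kept in 2% DMSO for 5 days, polyadenylated RNA was sequenced from single ends, and there was 1 group of 2 libraries, called replicates 1 and 2 as in the labels. No untreated cells were analysed here, so the values say how high the genes stood under DMSO and not whether DMSO changed them.

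Band 3 exchanges chloride for bicarbonate across the red cell membrane and is the main anchor of the membrane skeleton. It sits in complexes with the Rh proteins, the Rh-associated glycoprotein and other membrane proteins, some of them tied to the skeleton through ankyrin and others through protein 4.1 and adducin. Several of these proteins carry blood group antigens in humans, where they were found through antibodies; the antigens themselves are human polymorphisms and are not measured by RNA of a mouse line. Band 3 carries the Diego antigens, the RHD product and the Rh-associated glycoprotein the Rh and RHAG antigens, glycophorin C the Gerbich antigens, Kell and XK the Kell and Kx antigens, aquaporin 1 the Colton antigens, the butyrophilin-like protein ERMAP the Scianna antigens and ICAM-4 the Landsteiner-Wiener antigens.

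The sequences below show how the transcripts that carry the transcript results differ, read from GENCODE M21 on mm10 and written 5′ to 3′. Slc4a1 is transcribed from the minus strand of chromosome 11. Its short non-coding transcript Slc4a1-203 begins with a pair of exons of 40 and 53 bases that the coding transcript Slc4a1-201 lacks, at chr11:102363665-102363704 and chr11:102362961-102363013. Both transcripts then share the exon in which the coding sequence of Slc4a1-201 starts, with the start codon in capitals in the last line (chr11:102361381-102361395).
Slc4a1-203, first exon: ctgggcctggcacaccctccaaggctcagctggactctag
Slc4a1-203, next exon: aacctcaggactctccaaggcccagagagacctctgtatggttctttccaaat
Slc4a1-201 and Slc4a1-203, coding start: ATGggggacatgcgg

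The splice junctions of the next lines tell apart pairs of Kel and Ermap transcripts. In Kel, on the minus strand of chromosome 6, the bases before the junction are the same (chr6:41698888-41698902), and capitals mark the bases after it, which lie at chr6:41698434-41698448 in Kel-201 and at chr6:41690846-41690860 in Kel-204. In Ermap, on the minus strand of chromosome 4, capitals mark the 4 bases at the end of an exon (chr4:119183306-119183322) that Ermap-206 holds and Ermap-201 lacks.
Kel-201: attgacgaactgcagGAAATGGCCCCAGCC
Kel-204: attgacgaactgcagCCAGCCTACCCTCGA
Ermap-206: gcaagcgatggagGTAGaaaatcttctgga
Ermap-201: gcaagcgatggagaaaatcttctgga

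Levels are in TPM, the authors' estimate scaled by transcript length and library size, and errors are the SD of the 2 libraries (n = 2). Replicate 1 held 26149725 estimated reads and replicate 2 held 14149299. A gene with no read could hold up to 0.115 CPM in replicate 1 and 0.212 CPM in replicate 2 (3 counts, counting error only). Where the libraries are compared, the log2 ratio is replicate 2 over replicate 1 of TMM-scaled estimated counts, and it has no replicate check and no p-value, because 1 library stands against 1. Erythroid markers were present, with 10 of 10 at 1 TPM or more in both libraries and a summed level of 28202 TPM in replicate 1 and 76662 TPM in replicate 2. Of the markers of other cells, 4 of 8 megakaryocyte genes and 1 of 6 endothelial genes reached 1 TPM in both libraries, and 0 of 8 granulocyte and macrophage, 0 of 7 lymphocyte and 0 of 6 kidney epithelium genes did. Elane and S100a8, Pax5 and Cd8a, Cdh16 and Aqp2, and Cdh5 and Cldn5, which mark these other cells, had no reads.

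All 9 genes were transcribed at 1 TPM or more in both libraries, against 45.5% of the 21474 protein-coding genes. Their summed level was 808.5 TPM in replicate 1 and 1060 TPM in replicate 2, or 934 ± 178 TPM, which was 0.0809% and 0.106% of all TPM. The median gene of the 9 stood at 94.25 TPM in replicate 1 and 103.24 TPM in replicate 2, while the median over all detected protein-coding genes was 15.5 TPM. In bulk RNA a lower share of cells with a transcript and less of it in each cell cannot be told apart. The lowest of the 9 by mean, Icam4, was at percentile 85.0 of protein-coding genes, and the highest, Slc4a1, at percentile 97.8.

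By mean TPM the order was Slc4a1, Kel, Gypc, Rhag, Ermap, Xk, Aqp1, Rhd and Icam4. Most neighbours in that order overlapped between their libraries. Ermap over Xk was the exception, with 118.34 and 103.24 TPM for Ermap in replicates 1 and 2 and 94.64 and 96.19 TPM for Xk. Over all 36 pairs, 18 did not overlap, and 13 of these 18 had Rhd or Icam4 as a member of the pair. Over all transcripts, Rhd and Icam4 thus stood lowest, and the libraries of the other 7 genes mostly overlapped. Over coding transcripts alone, Slc4a1 averaged 25.2 TPM, below Icam4 at 27.6 TPM and Rhd at 51.0 TPM, with overlapping libraries.

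**Figure D1:**
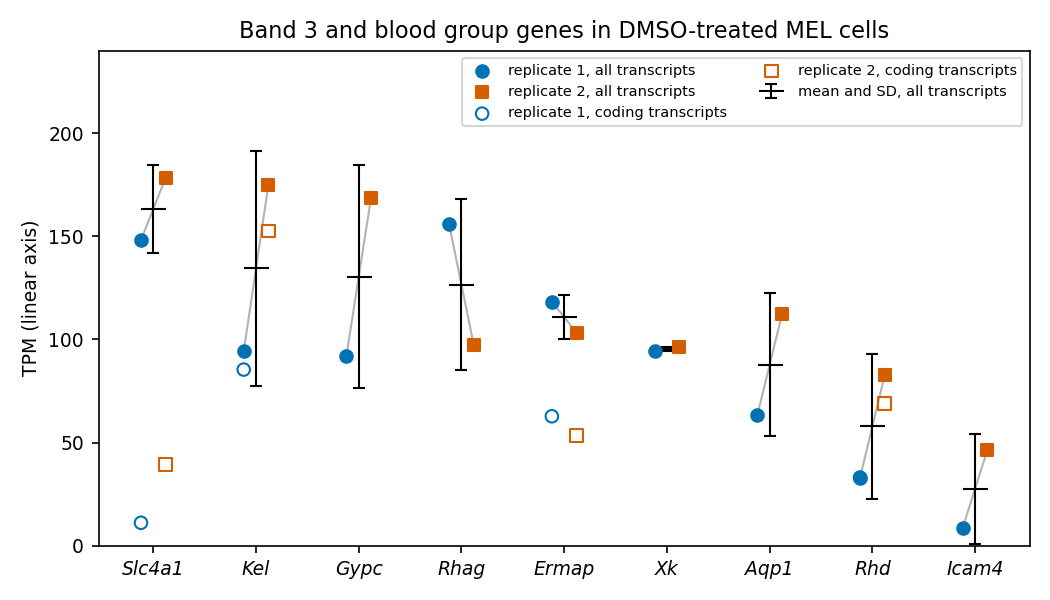
Level of each gene in TPM (linear axis from 0) in replicate 1 (circles) and replicate 2 (squares), filled for all transcripts and open for protein-coding transcripts where the 2 differ, with the mean and SD of both libraries as black bars. Slc4a1 stands highest by its mean over all transcripts (163 TPM; in replicate 1 Rhag was higher, at 155.77 against 148.24 TPM) but at 11.1 and 39.38 TPM over the coding one.

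Slc4a1 encodes band 3. It lies at chr11:102348824-102366203 (mm10, minus strand) and measured 148.24 TPM in replicate 1 and 178.38 TPM in replicate 2, or 163 ± 21.3 TPM, which ranked it 480 among protein-coding genes. Most of that level was not coding. The full-length coding transcript Slc4a1-201, of 4545 bases in 20 exons, held 11.1 TPM in replicate 1 and 39.38 TPM in replicate 2, which was 7.49% and 22.07% of the gene. The non-coding Slc4a1-203, of 356 bases in 5 exons, held 137.14 and 139.01 TPM, which was 92.51% and 77.93%. The other 3 annotated transcripts had no reads in either library. Thus the short transcript stood at nearly the same TPM in both libraries, while the coding one was 3.55-fold higher in replicate 2 than in replicate 1.

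Counted by reads, the balance of Slc4a1 was different, because TPM divides by length. Slc4a1-201 received 1210.45 of the gene's reads in replicate 1 and 2427.10 in replicate 2, or 53.9% and 80.3% of them, and Slc4a1-203 received 1036.55 and 593.90 reads. Per base of effective length, Slc4a1-203 had 3.32 reads in replicate 1 and 1.90 in replicate 2, and Slc4a1-201 had 0.269 and 0.539. The ratio of these densities was 12.4 in replicate 1 and 3.53 in replicate 2. Of the 356 bases of Slc4a1-203, 263 are also in Slc4a1-201, among them 195 coding bases with the start codon printed above, and 93 are its own. Its first exon starts 1576 bases downstream of the start of Slc4a1-201, within the first intron of that transcript. How the reads of the 263 shared bases were divided rests on the estimate of the authors' program, and the deposited interval of TPM ran from 122 to 139 TPM in replicate 1 and from 116 to 139 TPM in replicate 2 for Slc4a1-203, at a level not given in the sources used here.

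**Figure D2:**
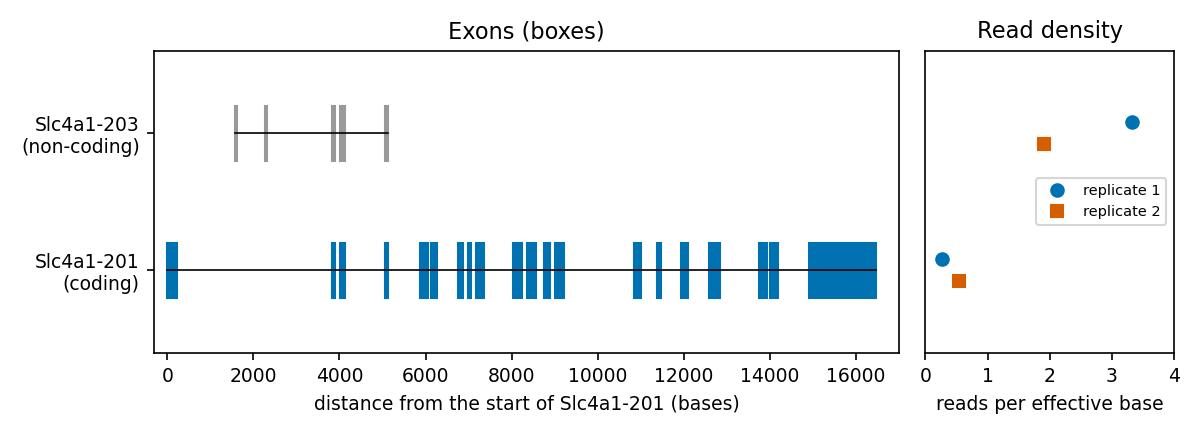
Left, exons of the coding Slc4a1-201 (blue) and the non-coding Slc4a1-203 (grey) by distance in bases from the start of Slc4a1-201; right, reads per base of effective length of each transcript in replicate 1 (circles) and replicate 2 (squares). The short transcript lies over the first part of the gene and has the higher read density in both libraries (3.32 and 1.90 against 0.269 and 0.539).

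Among the 9 genes, Slc4a1 alone had most of its mean TPM outside coding transcripts, 1 of 9, against 19.0% of the 9776 detected protein-coding genes. Over those genes the median share on coding transcripts was 97.6%. The 9 genes together had 75.1% of their TPM on coding transcripts in replicate 1 and 78.8% in replicate 2. Slc4a1-203 by itself made up 17.0% of their summed TPM in replicate 1 and 13.1% in replicate 2.

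The Rh complex is built from the product of Rhag, a membrane protein of the ammonium transporter family that the Rh polypeptide needs to reach the surface, and that of Rhd. Rhag (chr17:40811126-40840754, plus strand) measured 155.77 TPM in replicate 1 and 97.2 TPM in replicate 2, or 126 ± 41.4 TPM, all on its 1 annotated transcript. Rhd (chr4:134864536-134896172, plus strand) measured 33.05 and 82.63 TPM, or 57.8 ± 35.1 TPM. In TPM the partners differed in opposite directions between the libraries, so that the ratio of Rhag to Rhd was 4.71 in replicate 1 and 1.18 in replicate 2. Rhag was above Rhd in both libraries, and their values did not overlap. The log2 ratios of replicate 2 over replicate 1 were -0.87 for Rhag and 0.99 for Rhd. With the trend on GC content removed, as described below, they were 0.05 and 0.50.

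Rhd had a second transcript in 1 library. The coding Rhd-201 held 33.05 TPM in replicate 1, its whole level there, and 68.95 TPM in replicate 2, or 83.44%. Rhd-202, annotated as a retained intron, was listed at 0 in replicate 1 and held 13.69 TPM or 16.56% in replicate 2, from 123.13 estimated reads. It shares 621 bases with Rhd-201 and adds 80 intron bases, and its deposited interval in replicate 2 was wide, 4.03 to 19.1 TPM. Over coding transcripts alone, Rhag to Rhd was 4.71 in replicate 1 and 1.41 in replicate 2.

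The non-erythroid relatives of this family were silent at this depth: Rhbg and Rhcg, ammonium transporters of kidney and other epithelia, had no reads in either library. Rhag and Rhd themselves were thus the 2 of 4 family genes detected, against 45.5% of protein-coding genes. In the mouse the Rh blood group gene is Rhd, with no separate counterpart of human RHCE, so reads of Rhd are not split with a close copy.

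Glycophorin C, the product of Gypc, holds protein 4.1 and the scaffold protein p55 at the membrane. Gypc (chr18:32528322-32560034, minus strand) measured 92.15 TPM in replicate 1 and 168.81 TPM in replicate 2, or 130.5 ± 54.2 TPM. All of its 3 transcripts are coding. Gypc-203 held 52.84 and 114.13 TPM, or 57.35% and 67.60%, and Gypc-202 held 38.73 and 53.64 TPM, or 42.03% and 31.77%. Gypc-203 was the higher in both libraries; every base of Gypc-202 also lies in another transcript, so its share again rests on the estimate. The ratio of Slc4a1 to Gypc was 1.61 and 1.06 over all transcripts and 0.120 and 0.233 over coding ones, in replicates 1 and 2.

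The Kell protein, a zinc endopeptidase of the M13 family, is joined to XK by a disulfide bond in human red cells. Kel (chr6:41686330-41704339, minus strand) measured 94.25 TPM in replicate 1 and 174.86 TPM in replicate 2, or 135 ± 57.0 TPM. Xk (chrX:9272756-9313250, plus strand), which encodes a lipid scramblase of the membrane, measured 94.64 and 96.19 TPM, or 95.4 ± 1.10 TPM, on 1 transcript. The partners were level in replicate 1, with a ratio of Kel to Xk of 0.996, and Kel was the higher in replicate 2, with a ratio of 1.82. Xk was the gene of the 9 with the smallest spread in TPM, yet its estimated reads were 11536.5 in replicate 1 and 6628.44 in replicate 2, the most of any of them, from a transcript of 5076 bases.

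Kel was read from several transcripts. The full-length Kel-201, of 2530 bases in 19 exons, held 77.11 TPM in replicate 1 and 112.07 TPM in replicate 2, or 81.81% and 64.09%. The shorter coding Kel-204 held 8.28 and 40.59 TPM, or 8.78% and 23.21%. It has no base that other Kel transcripts lack, but it joins exons across 279 coding bases of Kel-201, by the junction printed above. Its estimated reads were 163.18 in replicate 1 and 452.40 in replicate 2, so it was higher in the shallower library by reads as well. Over coding transcripts the ratio of Kel to Xk was 0.902 in replicate 1 and 1.59 in replicate 2. Within Kel, on the same strand, GENCODE places the unclassified Gm37527, at 15.58 and 11.69 TPM, and within Xk the histone gene H2al1m, at 8.74 and 7.29 TPM. The deposited posterior SD of the reads was 0 for Kel in both libraries and 0.87 and 0.80 reads for Xk.

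Aqp1 encodes aquaporin 1, the main water channel of red cells. The gene (chr6:55336432-55348555, plus strand) measured 63.32 TPM in replicate 1 and 112.18 TPM in replicate 2, or 87.8 ± 34.5 TPM, on its 1 annotated transcript. Its estimated reads were 3962 and 3968, nearly equal although replicate 1 was the deeper library.

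Ermap encodes an immunoglobulin-fold protein of erythroid cells related to the butyrophilins. The gene (chr4:119175457-119190011, minus strand) measured 118.34 TPM in replicate 1 and 103.24 TPM in replicate 2, or 111 ± 10.7 TPM. Its reads were spread over the most transcripts of the 9 genes, and 53.0% of its TPM in replicate 1 and 51.7% in replicate 2 fell on coding ones. The coding Ermap-206 held 52.65 and 38.23 TPM, or 44.49% and 37.03%. Ermap-201, annotated as a target of nonsense-mediated decay, held 33.80 and 28.27 TPM, or 28.56% and 27.38%. The retained-intron transcript Ermap-203 held 14.34 and 12.90 TPM, or 12.12% and 12.50%, with 430 intron bases. A short coding transcript, Ermap-204, was listed at 0 in replicate 1 and at 11.27 TPM, or 10.92%, in replicate 2. The shares of Ermap-206, Ermap-201 and Ermap-203 were thus in the same order in both libraries. Ermap-206 and Ermap-201 differ at the exon end printed above, and their annotated coding sequences are 1776 and 1002 bases long.

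**Figure D3:**
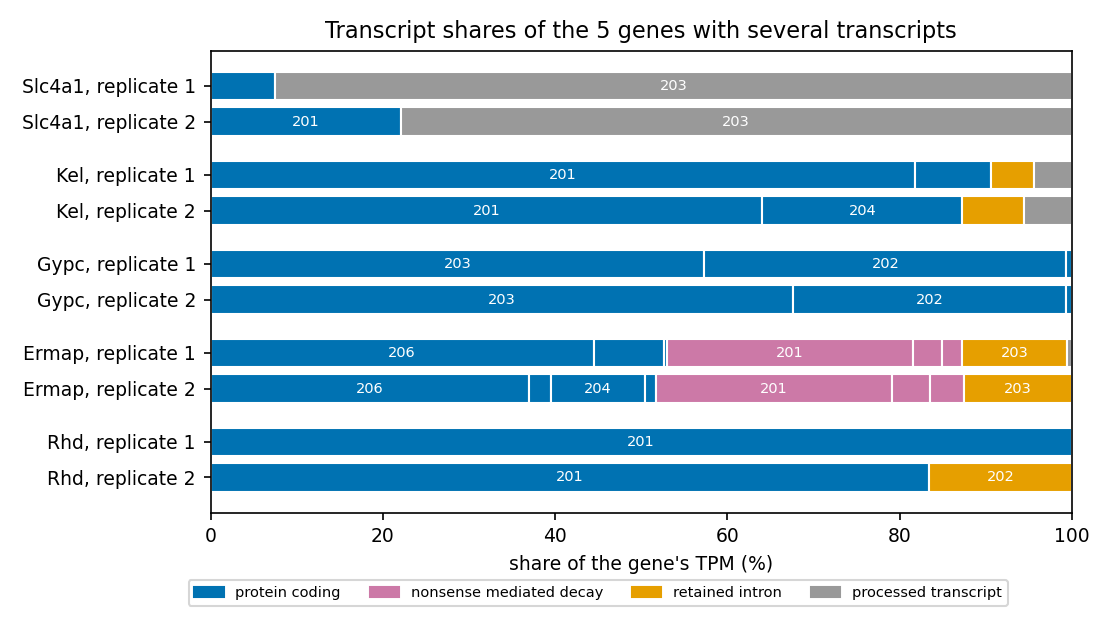
Share of each gene's TPM (%) on its transcripts in replicate 1 and replicate 2, for the 5 genes with several transcripts, coloured by annotated class; numbers name the larger transcripts. Coding transcripts fill all of Gypc, most of Kel and Rhd, 53.0% and 51.7% of Ermap, and 7.49% and 22.07% of Slc4a1.

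Icam4 encodes a short adhesion molecule of red cells that binds integrins. Over all transcripts, the gene (chr9:21029373-21030595, plus strand) was the lowest of the 9 and the most unequal between libraries. It stood at 8.74 TPM in replicate 1 and 46.48 TPM in replicate 2, or 27.6 ± 26.7 TPM. The estimated reads were 182.66 and 549.29, with posterior SDs of 6.32 and 5.14 reads. These SDs cover the assignment of reads within a library and not the spread between libraries. Icam1 lies 555 bases upstream and Icam5 1477 bases downstream on the same strand, and GENCODE M21 places the antisense gene Gm47079 over Icam4; the labels used here do not say whether strand was kept in the libraries, so antisense reads cannot be told apart. Both flanking adhesion genes were also higher in replicate 2, Icam1 at 6.74 and 17.05 TPM and Icam5 at 1.80 and 8.76 TPM.

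Between the libraries, 6 of the 9 genes had a positive log2 ratio and 3 a negative one, with a median of 0.64, against 0.04 over 11452 protein-coding genes. Icam4 had the largest, 2.21 with a counting half-width of 0.242, and Slc4a1 followed with 1.06. These were the 2 of 9 genes at least 2-fold higher in replicate 2, against 14.1% of protein-coding genes, and 0 of 9 were at least 2-fold lower, against 14.6%. Rhd lay just inside the limit at 0.99, or 1.99-fold. Rhag was lowest at -0.87, Ermap was at -0.52 and Xk at -0.16. Counting error was small beside these ratios, with a median half-width of 0.0595 over the 9 genes. The ratio of Slc4a1 counts, 2.09-fold, was larger than that of its TPM, 1.20, because the estimated length of the gene was 669.69 bases in replicate 1 and 1280.72 bases in replicate 2.

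The ratios followed the GC content of the transcripts. Over the 9 genes, Spearman's rho between log2 ratio and GC content was 0.933, and over 8893 protein-coding genes it was 0.780; both are given as descriptions, since genes in the same 2 libraries share their preparation. Rhag and Xk, at 42.2% and 42.5% GC, were below the first quartile of genes (45.5%), and both had negative ratios. Aqp1, Slc4a1 and Icam4, at 54.9%, 56.0% and 57.6%, were above the third quartile (54.8%), and all had positive ratios. With the trend taken off, Icam4 kept the largest ratio, 1.40, followed by Xk at 0.73, Gypc at 0.59, Rhd at 0.50, Kel at 0.43 and Slc4a1 at 0.38. Aqp1 at 0.08 and Rhag at 0.05 were nearest to the trend, and Ermap, at -0.50, was the gene below it. Rhag and Xk changed sign, and Xk moved farther from 0. The summed level of erythroid markers also differed between the libraries, as given above, and the part of GC content or of the state of the cells in these differences was not tested.

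**Figure D4:**
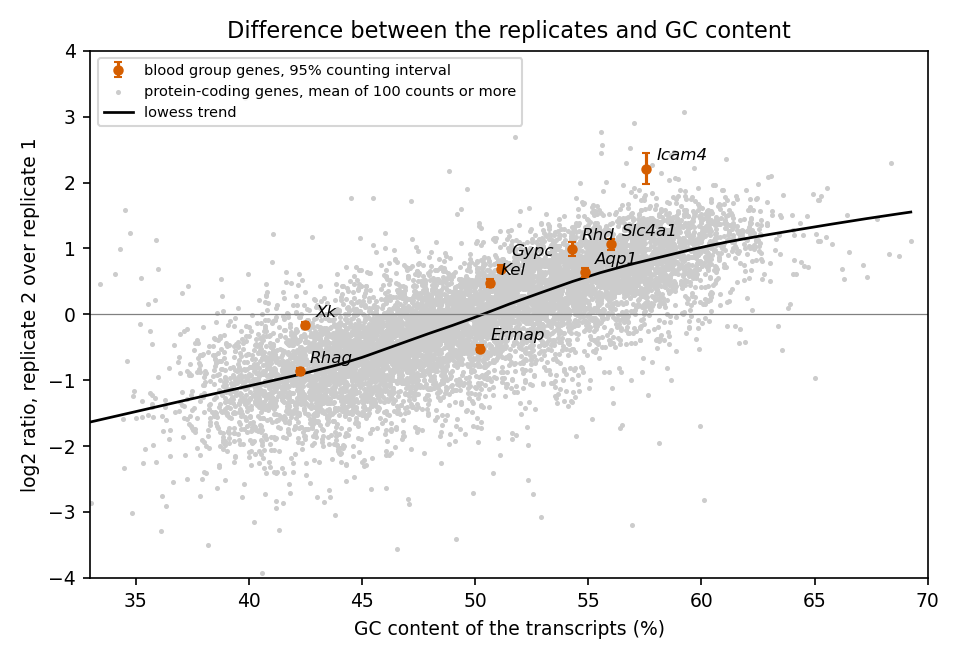
Log2 ratio of replicate 2 over replicate 1 (vertical) against GC content of the transcripts in % (horizontal) for the 9 genes (orange, with 95% counting intervals) over the protein-coding genes that averaged 100 counts or more (grey) and their lowess trend (line). The ratios range from Rhag at -0.87 to Icam4 at 2.21, with 8 of the 9 genes above the trend, Icam4 the farthest, and Ermap below it.

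In each of the gene families that the 9 belong to, they stood highest by mean TPM over all transcripts. Each count of detected family genes below includes the family's member of the 9, and stands against 45.5% of all protein-coding genes. In the Slc4 bicarbonate transporters, 4 of 10 genes were detected, and after Slc4a1 came Slc4a2, the widely expressed anion exchanger AE2, at 44.9 ± 22.8 TPM, Slc4a7 at 4.88 ± 2.10 TPM and Slc4a8 at 3.42 ± 0.417 TPM. Slc4a4 was at 0.01 and 0.03 TPM and Slc4a9 had no reads. These levels are over all transcripts of a gene, and those of the relatives were not split into coding and other transcripts. On its coding transcript Slc4a1 stood at 11.1 and 39.38 TPM, below Slc4a2 over all transcripts, at 28.77 and 61.05 TPM. The lead of Slc4a1 in its family was thus shown over all transcripts only.

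Of the 12 aquaporins, 3 were detected. Aqp9, a channel for water and glycerol, was at 14.5 ± 1.65 TPM and Aqp7 at 6.06 ± 0.849 TPM, both below either library of Aqp1, and Aqp11 at 0.87 and 1.09 TPM missed the limit in replicate 1. Aqp2, Aqp5, Aqp6 and Aqp12 had no reads. Of the 7 M13 metalloproteases, 4 were detected: after Kel came Ece1, an endothelin-converting enzyme, at 14.4 ± 8.73 TPM, Phex at 3.27 ± 0.445 TPM and Ece2 at 2.78 ± 1.32 TPM. Mmel1 was at 0.02 and 0.11 TPM and Mme had no reads. Vps13a, a lipid transfer protein that binds XK and was listed as its partner, was at 22.65 and 9.50 TPM. Among the XK relatives, Xkr5 was highest at 2.17 ± 0.948 TPM, followed by Xkrx at 1.40 ± 0.750 TPM. Xkr6 had 1 read in all and Xkr4 had none.

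The butyrophilins and the syndecans, whose cytoplasmic tails resemble that of glycophorin C, were low. Btn1a1 was at 2.42 ± 0.403 TPM, Btnl1 at 0.02 and 1.37 TPM and Btnl4 at 0.00 and 0.13 TPM, while Btn2a2, Btnl2 and Btnl6 had no reads. Sdc3 was at 5.55 ± 4.06 TPM and Sdc1 at 3.86 ± 2.43 TPM, and Sdc4 and Sdc2 had 3 reads and 1 read in all. The adhesion molecules differed from these families in that 4 of 4 were detected, with Icam2 at 4.03 and 6.16 TPM beside the flanking Icam1 and Icam5 given above. Icam4 was above each of the other 3 in both libraries, by 8.74 against 6.74 TPM over Icam1 in replicate 1.

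**Figure D5:**
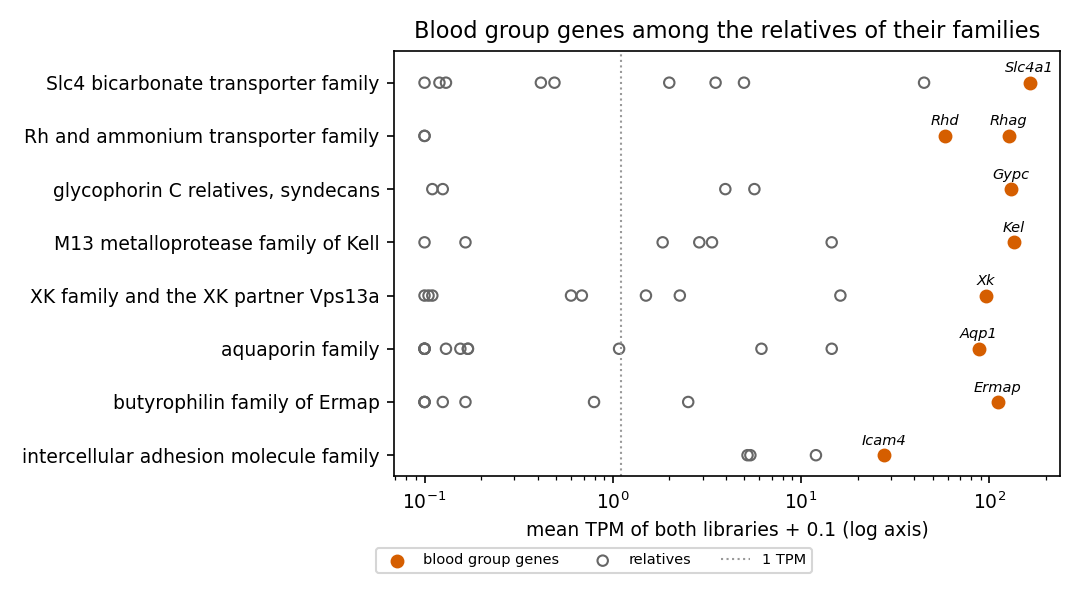
Mean TPM of both libraries plus 0.1 (log axis) for the 9 blood group genes (orange) and their relatives (open circles), 1 family a row, with 1 TPM as a dotted line. The row of Xk also holds its partner Vps13a as an open circle. Over all transcripts, the blood group gene of each row lies farthest to the right, from Icam4 at 27.6 TPM to Slc4a1 at 163 TPM. The coding transcript of Slc4a1 averaged 25.2 TPM, below Slc4a2 at 44.9 TPM over all its transcripts.

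Transcripts of the partners of the 9 proteins in the membrane were detected as well. Of 15 genes for proteins of the band 3 complexes, 15 were detected, against 45.5% of protein-coding genes, with a median of 153 TPM. Among the highest were Car2, the carbonic anhydrase reported to bind the tail of band 3, at 506 ± 203 TPM, Sptb at 290 ± 151 TPM and Add1 at 255 ± 57.2 TPM. The lowest were Cd47, a protein of the Rh complex, at 35.7 ± 2.86 TPM and Slc2a1, the glucose transporter, at 33.8 ± 14.1 TPM. Car2 and Sptb were thus above each of the 9 genes in both libraries.

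Of 24 other carriers of human blood group antigens, 21 were detected, against 45.5% of protein-coding genes. The median over all 24 was 24.3 TPM, and that over detected protein-coding genes was 15.5 TPM. Among the highest were Bsg, the Ok carrier basigin, at 241 ± 131 TPM, Ache, the Yt carrier acetylcholinesterase, at 99.0 ± 61.3 TPM and Piezo1, the mechanosensitive Er carrier, at 58.2 ± 12.9 TPM. The lowest were Aqp3, the GIL carrier, at 0.10 and 0.04 TPM and Ackr1, the Duffy carrier, at 0.04 and 0.07 TPM. The glycosyltransferases that build carbohydrate antigens gave 0 of 8 detected. B4galnt2 was at 0.57 TPM in both libraries, Fut1, Gcnt2 and A4galt had few reads, and Abo, Fut2, B3galnt1 and Gbgt1 had none. Transcripts of most listed protein carriers thus reached 1 TPM in both libraries, and those of the carbohydrate-building enzymes were near 0. The proteins were not measured.

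Of 8 integrin genes reported to encode receptors of ICAM-4, 6 were detected, against 45.5% of protein-coding genes. Itgb1 was at 220 ± 22.0 TPM, Itga2b at 112 ± 52.5 TPM, Itga4 at 19.8 ± 8.70 TPM and Itgb2 at 16.0 ± 1.51 TPM, and the lowest were Itgal at 1.32 ± 0.0212 TPM and Itgb3 at 0.10 and 0.23 TPM. Transcripts of both subunits of VLA-4, Itga4 and Itgb1, were detected, whereas Itga2b was detected with its partner Itgb3 near 0. Itga2b also belongs to the megakaryocyte markers, of which 4 of 8 were detected, against 45.5% of protein-coding genes. Pf4 at 13.71 and 20.08 TPM, Gp9 at 2.96 and 12.28 TPM and Gp1ba at 3.60 and 7.31 TPM were detected with it. Gp6 and Treml1 had no reads.

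The genes nearest to each of the 9 in level, by distance in log2(TPM + 0.1) over the 2 libraries, say how common each pair of values was. For Slc4a1 they were Kat7, Agfg1 and Rbm38, for Rhag Arpc5, Phf10 and Chchd7, for Rhd Hdac5, Sdhd and Tsc22d4, for Xk Ubtf, Adam10 and Eed, for Aqp1 Ilk, Pmpca and Scaf1, and for Ermap Gtf2e2, Chmp2a and Stx4a. Gypc and Kel were in each other's list at a distance of 0.0603, with Srsf3 in both, Urod near Gypc and Vps72 near Kel. Icam4 had the most distant neighbours, Cad at 0.0983, Rgl2 at 0.238 and Atg9a at 0.279. With 2 libraries these distances measure level and the gap between the libraries and nothing else.

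The promoters are shown because erythroid genes are known targets of GATA1, which binds GATA motifs, and of KLF1, which binds CACCC boxes. Transcripts of 8 of 8 erythroid transcription factors were detected, against 45.5% of protein-coding genes. Highest were Zfpm1 at 394 ± 168 TPM, Gata1 at 299 ± 127 TPM, Ldb1 at 295 ± 113 TPM and Tal1 at 188 ± 28.7 TPM. Lowest were Nfe2 at 81.1 ± 32.1 TPM and Lmo2 at 7.01 ± 4.31 TPM. RefSeq windows of 300 bases, 250 before and 50 after the start, were matched for 7 of the 9 genes on GRCm38.p6. The letters GATAA, searched on both strands with TTATC as the other strand, were in 5 of 7 windows, against 25.4% of 32851 windows of the same length. The letters CACCC or GGGTG were in 7 of 7, against 57.5%, and both motifs were in 5 of 7, against 12.6%. These letters were chosen after the sequences had been seen, a match is not a bound site, and no binding was measured here. The next lines give 80 bases of 4 promoters, 75 before and 5 after the gene's start in GENCODE M21, with GATAA or TTATC in capitals.
Ermap, chr4:119190007-119190086, minus strand: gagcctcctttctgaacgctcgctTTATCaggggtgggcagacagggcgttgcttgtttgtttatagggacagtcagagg
Kel, chr6:41704335-41704414, minus strand: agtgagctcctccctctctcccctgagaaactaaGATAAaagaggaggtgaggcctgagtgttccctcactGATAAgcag
Rhag, chr17:40811051-40811130, plus strand: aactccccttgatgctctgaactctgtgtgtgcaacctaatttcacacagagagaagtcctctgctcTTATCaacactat
Rhd, chr4:134864461-134864540, plus strand: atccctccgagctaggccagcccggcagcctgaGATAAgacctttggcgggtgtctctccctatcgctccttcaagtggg

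The match began 51 bases before that start in Ermap, 8 in Rhag and 42 in Rhd, and Kel had a pair of matches at 41 and 4 bases. In Icam4 the GENCODE M21 start lies 59 bases upstream of the RefSeq start, and the match falls 16 bases inside the M21 gene. Icam4-201 is 971 bases long in M21 but 907 in the deposited values, so whether the match lies inside the measured transcript is not known. The windows of Aqp1 and Xk held CACCC or GGGTG and no GATAA. The window of Aqp1 ended at chr6:55336348, before the GENCODE start of the gene at chr6:55336432, so the bases next to that start were not searched. The promoters of Slc4a1 and Gypc were not searched. Of the 5 genes with a match, Kel, Rhag and Ermap were at 135, 126 and 111 TPM by mean, Rhd at 57.8 TPM and Icam4 at 27.6 TPM. Xk and Aqp1, without a match in the windows searched, lay between these at 95.4 and 87.8 TPM.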

How the data were processed

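PolyA RNA of DMSO-treated MEL cells was measured in 2 libraries. The labels call them biological replicates, but both carry 1 cell sample identifier. Whether the cultures were separate is thus not known, and their spread may be technical. The submitters' file lists name mm10 and GENCODE M4; the program behind the values is not stated there or in the labels. The authors deposited expected counts (estimated reads, unscaled), TPM and FPKM scaled by length, posterior means with credibility bounds, and the percent of a gene's TPM on each transcript, per the file headers.

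GENCODE M21 gave symbols, coordinates and transcript classes for 42462 of 43346 genes by Ensembl identifier; 26345 rows with other identifiers were left out, but deposited TPM includes them. Ratios used rounded counts, TMM factors (edgeR 4.0.16, R 4.3.3) and a prior count of 1, with DESeq2 1.42.0 size factors as an alternative, over genes that averaged at least 10 counts. Detection was 1 TPM in both libraries. The trend with GC content was fitted by lowess (statsmodels 0.14.6, span 0.3, 3 iterations) to protein-coding genes that averaged at least 100 counts, 99.0% of which had a GC value. Scripts used Python 3.11.15, pandas 2.3.3, numpy 2.4.6 and matplotlib 3.10.9. Of the steps, only the scaling and the log2 ratios were tested on simulated counts, which had no GC trend built in. Promoters are from RefSeq.

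The genes and lists were chosen with earlier results of these data known. Named were all 9 genes, their transcripts with at least 10% of the gene's TPM in a library, the 4 highest and 2 lowest genes of each list (all where a list has few), and the 3 nearest genes. Marker lists are given by counts, and a gene that this rule takes is not reported here. Alternatives were other scalings, units, filters and pseudocounts, and each library alone. With 1 group, no test was possible.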

Additional observations from a re-analysis of the deposited data

How the results depend on the processing

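The summed level of 934 TPM was 1539 TPM when TPM was rescaled without rows of other identifiers, mitochondrial genes and pseudogenes, and 721 TPM over coding transcripts alone. Taking each library alone gave 808.5 to 1060.0 TPM, 9 to 9 genes detected and a coding share of 75.1 to 78.8%. At a limit of 10 TPM, 8 genes were detected, Icam4 being below it in replicate 1. The median log2 ratio of 0.64 was 0.89 with library totals, 0.58 with no filter, 0.82 from TPM with a pseudocount of 0.1, 0.82 with a pseudocount of 1, and 0.43 with the GC trend removed. Over coding transcripts alone, an alternative chosen after seeing the data, it was 0.84. The coding share of 76.9% was 89.3% by expected counts and, also chosen after seeing the data, 90.3% without Slc4a1. The ratio of a gene changed sign for Rhag and Xk with the GC trend removed, for 1 gene (Xk) with library totals, for 1 gene (Xk) from TPM and for 0 genes with DESeq2 size factors. Apart from the rescaling and the library totals, each built to move all genes at once, the cause of these differences was not tested. No paired analysis was possible because there is 1 group, and ratios between the libraries cannot leave a library out. Depth limits the genes with few reads, such as Btnl1 and Xkr6, more than the 9 genes, whose lowest count was 182.66 reads.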
